A study of Mus musculus with 15 samples.

Results

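Prlr, Hsd17b7, Ptgfr and Akr1c18 are 4 genes whose products maintain the corpus luteum or take part in its regression. They were picked by symbol, and all 4 were found among the 27907 genes of the table and among the 21525 genes that were tested. RNA was sequenced from whole ovaries of 7 HSD17B1-KI and 8 WT female mice, 1 library per mouse, taken at 6 months of age in the estrus stage of the cycle. HSD17B1-KI mice are homozygous for a Ser143Ala change in HSD17B1, an enzyme that reduces estrone to estradiol. The change was made in the germ line with CRISPR/Cas9 and is therefore in every cell of the mouse, and the WT controls came from matings of heterozygous parents. The question was which ovarian transcripts differ when the enzyme is inactive. The sources used here give no sequencing batch or date.

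The corpus luteum forms from the ovulated follicle and makes progesterone. In rodents it is kept active by prolactin, which acts through the prolactin receptor PRLR, the kinase JAK2 and the transcription factors STAT5A and STAT5B. Prolactin also holds back Akr1c18, which encodes 20α-hydroxysteroid dehydrogenase, the enzyme that turns progesterone into a weak metabolite. Hsd17b7 encodes an enzyme of cholesterol synthesis that can also reduce estrone, and its product was first described in the corpus luteum as a protein bound to the prolactin receptor. Ptgfr encodes the receptor of prostaglandin F2α, the signal that starts luteolysis and is known to raise Akr1c18 in rodents.

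Prlr (ENSMUSG00000005268) lies at chr15:10177238-10349180 on the plus strand of GRCm38. Hsd17b7 (ENSMUSG00000026675) lies at chr1:169949535-169969241, Ptgfr (ENSMUSG00000028036) at chr3:151796502-151837630 and Akr1c18 (ENSMUSG00000021214) at chr13:4132615-4150654, all on the minus strand. The exons of Akr1c18 share 7 of 1205 windows of 50 bases with transcripts of Akr1cl, a related gene whose values lay between 100914 and 245156 normalized counts, so low values of Akr1c18 are uncertain. Prlr shares 154 of 15467 windows with the overlapping gene Gm21973, Ptgfr shares 18 of 6718 windows with other transcripts, and Hsd17b7 shares none of 5104. Ptgfr also overlaps Gm43618 on the opposite strand, and whether reads were counted by strand is not given in the sources used here.

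The sequences before the start sites are shown for Ptgfr and Akr1c18, which moved together across the ovaries, and for Hsd17b7, which did so in part. They are RefSeq sequences on GRCm38.p6 read 5′ to 3′ on the minus strand, without bases that GENCODE places in an exon, at chr1:169969242-169969455 for Hsd17b7, chr3:151837631-151837778 for Ptgfr and chr13:4150655-4150896 for Akr1c18.
Hsd17b7: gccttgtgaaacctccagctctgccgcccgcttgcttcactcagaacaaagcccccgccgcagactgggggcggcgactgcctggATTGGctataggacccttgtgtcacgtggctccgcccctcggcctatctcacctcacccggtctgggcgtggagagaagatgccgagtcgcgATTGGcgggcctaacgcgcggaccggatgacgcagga
Ptgfr: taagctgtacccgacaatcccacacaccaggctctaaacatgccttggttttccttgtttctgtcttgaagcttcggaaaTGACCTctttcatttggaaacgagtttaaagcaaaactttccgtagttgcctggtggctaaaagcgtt
Akr1c18: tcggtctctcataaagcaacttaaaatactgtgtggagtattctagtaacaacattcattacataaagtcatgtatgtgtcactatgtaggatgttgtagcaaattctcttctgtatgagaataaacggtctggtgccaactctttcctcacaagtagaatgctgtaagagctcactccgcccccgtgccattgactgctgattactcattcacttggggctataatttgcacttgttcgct
Capitals mark matches to 3 motifs searched on both strands in the 250 bases before the RefSeq start: AGGTCA, the core bound by steroidogenic factor 1 and related receptors, TTCNNNGAA, the site bound by STAT5, and CCAAT, the box bound by NF-Y. The motifs do not overlap each other in these windows. Hsd17b7 held CCAAT on the opposite strand 165, 73 and 12 bases before the start, the last of which is outside the bases shown. Ptgfr held AGGTCA on the opposite strand 170 bases before the start, and Akr1c18 held none of the 3. For Prlr, CCAAT was found 24 bases before 1 start site and TTCNNNGAA 110 bases before another. Of 32851 mouse promoter windows of the same length, 4607 held AGGTCA, 2306 (7.02%) held TTCNNNGAA and 11120 (33.8%) held CCAAT. A motif on the opposite strand reads as its reverse complement in the lines above, and a match describes letters and not binding.

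The authors divided the reads counted on each gene by 1 size factor per library, and these normalized counts are the values given below. Reads on genes numbered 26544745 to 72362981 per ovary, with medians of 43611091 in HSD17B1-KI and 45313571.5 in WT. No marker of the 10 cell type and tissue lists was at 0, those of luteal, granulosa and theca cells and of oocytes included. Markers of the oviduct summed to 232321 normalized counts in WT 1 and 154799 in WT 8, against 1147 to 27562 in HSD17B1-KI. In the other WT ovaries the sums ran from 708 in WT 6 to 18223 in WT 7. Libraries of both genotypes, WT 1 and WT 8 above all, may therefore also hold RNA of another tissue, which was not tested. Of 6 adipose markers, 5 were lower and 1, Plin1, was higher in HSD17B1-KI at an unadjusted p under 0.05 in limma-trend. Over all genes tested, 4.64% were lower and 5.36% higher at that p. The adipose markers summed to 2322 to 9910 in HSD17B1-KI and to 2632 to 10811 in WT. Hsd17b1 itself was at 11650 ± 4351 (SD, n = 7) normalized counts for HSD17B1-KI against 8829 ± 2952 (SD, n = 8) for WT. Its level does not check the genotype, because the mutation changes 1 codon, and a count of reads per gene does not show that codon. Whole ovaries were sequenced, so more luteal cells, more RNA per luteal cell and RNA of other ovarian cells cannot be told apart.

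None of the 4 genes differed between the genotypes past the threshold, an adjusted p under 0.05 in limma-trend, edgeR or DESeq2. Over all genes tested, 46 passed it in limma-trend, which is 0.214%, with 45 higher and 1 lower in HSD17B1-KI, while 0.232% passed in edgeR and 2.16% in DESeq2. The groups overlapped for each of the 4 genes, while they did not overlap for 0.325% of the genes tested. What varied was the single ovary. From the lowest to the highest of the 15 mice, Prlr spanned 3.25-fold, Hsd17b7 19.3-fold, Ptgfr 27.2-fold and Akr1c18 105-fold.

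**Figure D1:**
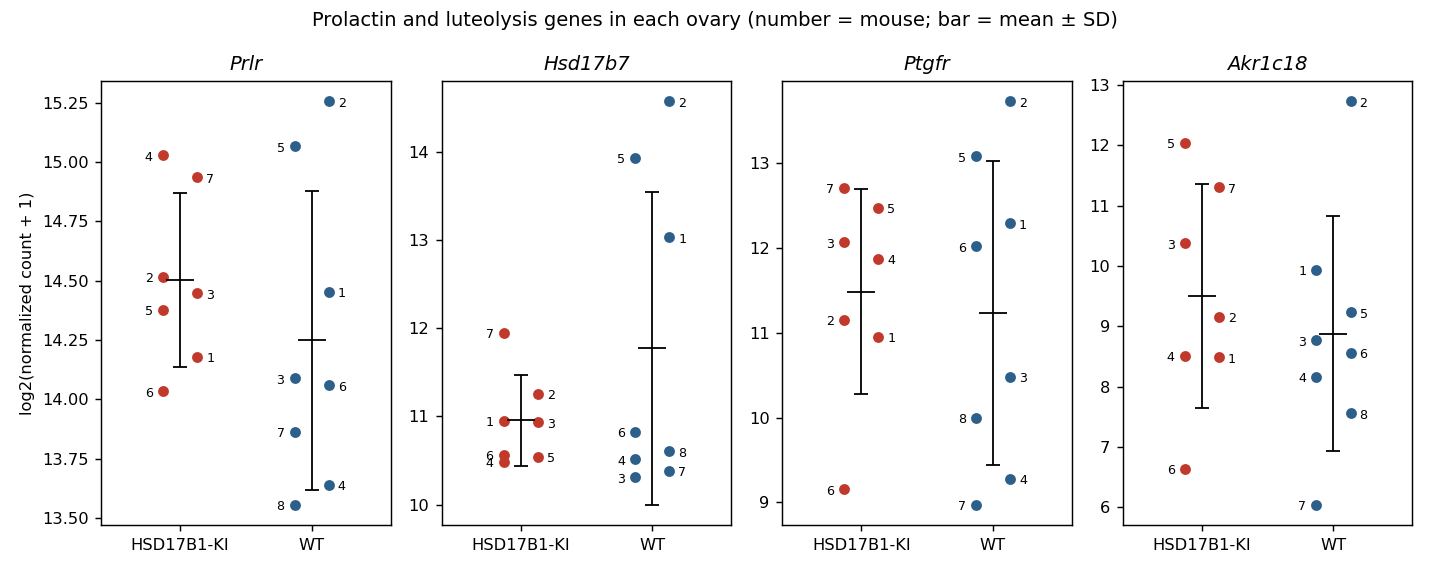
Each point is 1 ovary, numbered by mouse, on a log2(normalized count + 1) axis that differs between the panels, with HSD17B1-KI in red, WT in blue and black bars for the mean and SD. The groups overlap in each panel, WT 2 is the highest ovary in all 4, and WT 1, WT 2 and WT 5 lie above the other 12 ovaries for Hsd17b7.

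Prlr, the receptor through which prolactin sustains luteal cells, had the smallest spread of the 4 genes. In HSD17B1-KI its normalized counts were 16771 at the lowest, 22320 at the median and 33427 at the highest. In WT they were 12035 at the lowest, 17246 at the median and 39159 at the highest. WT 2 and WT 5 lay above all HSD17B1-KI mice and WT 4, WT 7 and WT 8 below them, so that the WT range enclosed the HSD17B1-KI range. The means were 23876 ± 6260 (SD, n = 7) for HSD17B1-KI against 21262 ± 10160 (SD, n = 8) for WT. The log2 fold change, HSD17B1-KI minus WT, was 0.25 ± 0.25 (SE), with a 95% interval from -0.27 to 0.78 and an adjusted p of 0.786 in limma-trend. An exact permutation test over all 6435 splits of the mice, two-sided, gave p = 0.36.

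Hsd17b7, the luteal protein bound to the prolactin receptor, was low in most ovaries and very high in 3. In HSD17B1-KI its normalized counts were 1435 at the lowest, 1955 at the median and 3953 at the highest. In WT they were 1266 at the lowest, 1686 at the median and 24466 at the highest. The 3 high ovaries were all WT, with 8396 in WT 1, 24466 in WT 2 and 15680 in WT 5, and the other 5 WT ovaries lay between 1266 and 1815. None of the 7 HSD17B1-KI mice reached the WT mean of 6997 ± 8738 (SD, n = 8), and their own mean was 2112 ± 889 (SD, n = 7). This WT mean rests on the 3 ovaries, and the medians of the groups were close. The log2 fold change was -0.82 ± 0.63 (SE), with a 95% interval from -2.16 to 0.53, an adjusted p of 0.717 in limma-trend and an exact permutation p of 0.26. The count models gave -1.73 on the log2 scale, with an adjusted p of 0.335 in edgeR and 0.16 in DESeq2. Oviduct markers summed to 232321 in WT 1, 14890 in WT 2 and 1095 in WT 5, and their part in the level of Hsd17b7 was not tested.

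Ptgfr, the receptor that receives the luteolytic signal, varied within both groups. In HSD17B1-KI its normalized counts were 569 at the lowest, 3743 at the median and 6719 at the highest. In WT they were 501 at the lowest, 2788.5 at the median and 13612 at the highest. HSD17B1-KI 6, WT 7 and WT 4 were the lowest ovaries, WT 2 and WT 5 lay above all HSD17B1-KI mice, and the groups overlapped along most of their range. The means were 3613 ± 2168 (SD, n = 7) for HSD17B1-KI against 4377 ± 4679 (SD, n = 8) for WT. The log2 fold change was 0.25 ± 0.73 (SE), with a 95% interval from -1.29 to 1.79, an adjusted p of 0.94 in limma-trend and an exact permutation p of 0.752. Its sign was not stable, since edgeR and DESeq2 both gave -0.28 on the log2 scale, and it was -0.03 without WT 4 and -0.07 without WT 7.

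Akr1c18, the enzyme that inactivates progesterone, was the most variable of the 4. In HSD17B1-KI its normalized counts were 98.8 at the lowest, 569 at the median and 4205 at the highest. In WT they were 65.0 at the lowest, 406 at the median and 6803 at the highest. HSD17B1-KI 5 with 4205 and HSD17B1-KI 7 with 2533 ranked next to WT 2, while WT 7 and HSD17B1-KI 6 were under 100 normalized counts. The means were 1352 ± 1510 (SD, n = 7) for HSD17B1-KI against 1217 ± 2274 (SD, n = 8) for WT, so that the SD exceeded the mean in both groups. The log2 fold change was 0.63 ± 0.89 (SE), with a 95% interval from -1.27 to 2.52, an adjusted p of 0.864 in limma-trend and an exact permutation p of 0.531. These intervals are wide, and a difference of 2-fold in either direction lies inside them for Ptgfr and Akr1c18.

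Levels of different genes were compared only per kilobase of exon. The length was the union of exons of all annotated transcripts, 15339 bases for Prlr, 5104 for Hsd17b7, 6778 for Ptgfr and 1207 for Akr1c18. A single transcript can be shorter than this union, so the order between genes depends on the length used. On this scale Prlr had a median over the 15 mice of 1388 normalized counts per kilobase, Ptgfr 552, Akr1c18 360 and Hsd17b7 356. The ranges of all 4 overlapped, and the last 2 medians were almost equal. Prlr was the most abundant of the 4 in 10 of 15 ovaries. Akr1c18 was the most abundant in HSD17B1-KI 5, HSD17B1-KI 7 and WT 2, with 3484, 2099 and 5636 normalized counts per kilobase. Hsd17b7 was the most abundant in WT 1 and WT 5, with 1645 and 3072, and Ptgfr was so in none. In WT 1 the order was close, with Prlr at 1463.

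The 4 genes moved together across ovaries more than against each other, and each of the 6 pairs had a positive correlation over the 15 mice. The closest pair was Ptgfr and Akr1c18, the luteolytic receptor and the enzyme that follows it. Their Pearson r was 0.854 (n = 15, permutation p = 3e-05, adjusted over 6 pairs p = 0.00018) and their Spearman rho was 0.914 (permutation p = 2e-05, adjusted p = 0.00012). Without HSD17B1-KI 6 and WT 7, the ovaries farthest from the median of Ptgfr, r was 0.765 (permutation p = 0.00219). Within HSD17B1-KI r was 0.901 (n = 7, exact permutation p = 0.00417) and within WT it was 0.848 (n = 8, exact permutation p = 0.00164), so that the relation held in both genotypes.

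Prlr was also high where Ptgfr was high. Their r was 0.839 (n = 15, permutation p = 0.00014, adjusted p = 0.00042) with a rho of 0.829 (permutation p = 0.0002, adjusted p = 0.0006), and r was 0.794 without WT 2 and WT 8. Within WT r was 0.903 (n = 8, exact permutation p = 0.00174), and within HSD17B1-KI it was 0.689 (n = 7, exact permutation p = 0.0885), which did not pass 0.05. Prlr and Akr1c18 had an r of 0.663 (permutation p = 0.00739, adjusted p = 0.00887) and a rho of 0.743 (permutation p = 0.00211, adjusted p = 0.00422). This relation rested in part on WT 2 and WT 8, without which r was 0.515 (permutation p = 0.0709). Over the 12 mice without WT 1, WT 2 and WT 5, r was 0.584 (permutation p = 0.0445) and rho 0.713 (permutation p = 0.0117). It was 0.804 within WT (n = 8, exact permutation p = 0.00903) and 0.381 within HSD17B1-KI (n = 7, exact permutation p = 0.4).

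Pairs with Hsd17b7 had a lower r without the 3 high WT ovaries, which lie apart from the rest. Over the other 12 mice, r was 0.535 with Prlr (permutation p = 0.0717), 0.554 with Ptgfr (permutation p = 0.0509) and 0.514 with Akr1c18 (permutation p = 0.0892), and none passed 0.05. Over all 15, r was 0.701 with Prlr (adjusted p = 0.00469, permutation), 0.711 with Ptgfr (adjusted p = 0.0044, permutation) and 0.561 with Akr1c18 (adjusted p = 0.0293, permutation). The matching rho values were 0.632, 0.721 and 0.586, with adjusted permutation p of 0.0159, 0.00511 and 0.0238. Without the 2 ovaries farthest from the median of the first gene, r was 0.592 with Prlr (without WT 2 and WT 8), and 0.537 with Ptgfr and 0.442 with Akr1c18 (without WT 2 and WT 5), the last with a permutation p of 0.134. Within HSD17B1-KI, r with Prlr, Ptgfr and Akr1c18 was 0.371, 0.378 and 0.38 (n = 7, exact permutation p between 0.397 and 0.419). Within WT it was 0.941, 0.888 and 0.817 (n = 8, exact permutation p between 0.000496 and 0.00335).

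Hsd17b7 and Akr1c18 lay on opposite sides of their medians most clearly in HSD17B1-KI 5, and there only Akr1c18 was far from its median. That ovary had rank 2 of 15 for Akr1c18, with 4205 normalized counts, which was 9.68 times the median. For Hsd17b7 it had rank 11, with 1492, which was 0.822 times the median and near the level of most ovaries. HSD17B1-KI 1 also lay on opposite sides of the medians of the 15 mice, but near both. Its Hsd17b7 was 1.09 times the median, at rank 6, and its Akr1c18 0.826 times, at rank 11. WT 5 had rank 2 for Hsd17b7, with 15680, while its Akr1c18, at 600 and rank 6, was 1.38 times the median of the 15 mice, so that both genes were above their medians there. Per kilobase, Akr1c18 was at 3484 and Hsd17b7 at 292 in HSD17B1-KI 5, and the order was reversed in WT 5, with 497 and 3072. WT 2 was highest for both genes, with 5636 for Akr1c18 and 4793 for Hsd17b7 per kilobase. WT 7 was lowest for Akr1c18 and had rank 14 for Hsd17b7, so that both were low. The pattern is a description of 15 ovaries, and the ages of their corpora lutea were not analysed here.

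**Figure D2:**
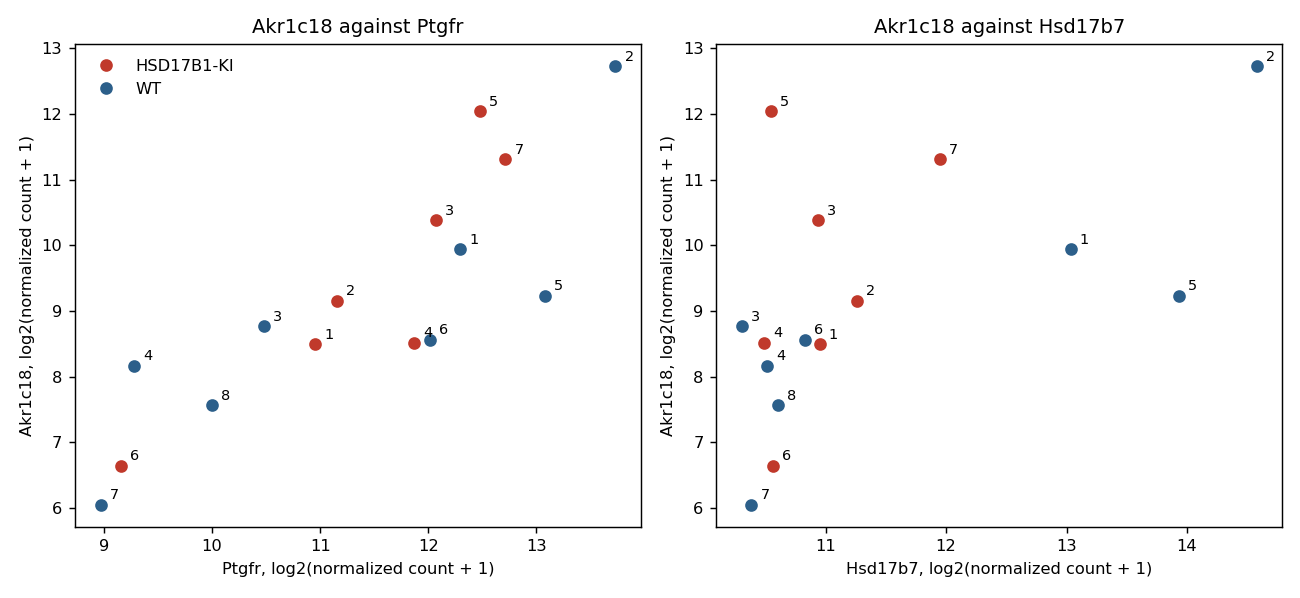
Each point is 1 ovary, numbered by mouse, with HSD17B1-KI in red and WT in blue, and both axes show log2(normalized count + 1). Akr1c18 follows Ptgfr (left, r = 0.854), while against Hsd17b7 (right) WT 1, WT 2 and WT 5 stand apart on the right. HSD17B1-KI 5 is high for Akr1c18 at a level of Hsd17b7 near that of most ovaries.

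The summed level of 7 luteal cell markers, which encode steroidogenic proteins and other transcripts of luteal cells, ranged from 652957 to 1043280 normalized counts in HSD17B1-KI and from 413968 to 1009900 in WT. Its lowest values were those of WT 8, WT 4 and WT 7, which were also the 3 lowest for Prlr. As a description over 15 mice, its r was 0.825 with Prlr, 0.747 with Ptgfr, 0.625 with Akr1c18 and 0.352 with Hsd17b7. Most of the sum came from Hsd3b1 and Cyp11a1, with means of 384249 and 342309 normalized counts in HSD17B1-KI and 341018 and 272914 in WT. The sum may also hold RNA of other steroid-making cells of the ovary, which was not tested. Gene by gene, the r of the 7 markers with Prlr had a median of 0.739, and that of Parm1 was 0.171. The part of the summed markers in the levels of the 4 genes was not tested. Values of r with the summed markers of granulosa cells and of oocytes were between -0.455 and -0.0624 for the 4 genes. Those of theca and interstitial cells had an r of -0.469 with Hsd17b7, -0.328 with Ptgfr, -0.308 with Akr1c18 and -0.0423 with Prlr. Their sum was 141273 to 315718 in HSD17B1-KI and 83522 to 157785 in WT, with 1 of 6 markers past the adjusted threshold, and its part in the genes reported here was not tested.

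Genes of prolactin signalling were compared next. Of 20 genes tested besides Prlr, none passed the adjusted threshold in limma-trend, 2 were lower and 0 higher at an unadjusted p under 0.05, and the median log2 fold change was -0.03, against -0.02 over all genes tested. The background at an unadjusted p is 4.64% lower and 5.36% higher. Prl itself, the hormone, was not among the genes of the table. The list was chosen with earlier results of these data known.

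Stat5a, which carries the prolactin signal to the nucleus, was at 2479 ± 472 (SD, n = 7) normalized counts for HSD17B1-KI against 3501 ± 992 (SD, n = 8) for WT, and none of the HSD17B1-KI mice reached that WT mean. Its log2 fold change was -0.47 with an adjusted p of 0.308 in limma-trend and 0.106 in DESeq2. Igf1, a growth factor, had a log2 fold change of -0.32 (limma-trend adjusted p = 0.377). Stat5b was at 6425 ± 823 and 7402 ± 2029 normalized counts, and Jak2, the kinase bound to PRLR, at 3081 ± 229 and 3300 ± 561. Cish, a feedback gene induced by STAT5, was at 726 ± 290 and 1622 ± 1501 (log2 fold change -0.83, limma-trend adjusted p = 0.545). Lhcgr, the receptor of luteinizing hormone that prolactin helps to keep on luteal cells, was at 25560 ± 11473 in HSD17B1-KI and 16126 ± 12108 in WT (log2 fold change 0.85, limma-trend adjusted p = 0.504). Socs2, another feedback gene, ranged from 7814 to 21302 and from 9786 to 19080, and Ptpn6, a phosphatase, had a log2 fold change of -0.28 (limma-trend adjusted p = 0.558).

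Across the ovaries, Stat5a, Stat5b and Cish had their 3 highest values in the same mice as Hsd17b7. Cdkn1b of the same list, named after its values were seen, did so too. The share of all genes with these 3 highest mice is not given here. Stat5a was at 4297 normalized counts in WT 1, 4928 in WT 2 and 4793 in WT 5, against 1794 to 3130 in the other 12 ovaries. Stat5b was at 7822, 10932 and 9931 in those mice, close above HSD17B1-KI 7 with 7605. Cish was at 1534, 5104 and 1947, the first of which differed little from the 1490 of WT 3. As a description over 15 mice, r with Hsd17b7 was 0.85 for Stat5a, 0.90 for Stat5b and 0.72 for Cish, and over the 12 mice without these WT ovaries it was 0.22, 0.51 and -0.26. Lhcgr differed from them, with an r to Hsd17b7 of 0.63 over 15 mice and 0.81 over 12. The likeness of Stat5b was not particular to Hsd17b7. Its r was also 0.81 with Prlr and 0.82 with Ptgfr over 15 mice, and 0.69 and 0.73 over 12. Over the whole list of 20 genes the median r with Hsd17b7 was 0.11, against 0.0015 over the 18023 genes that averaged 10 or more and had a symbol of their own. Jak2 and Socs2 had values of 0.09 and -0.10.

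**Figure D3:**
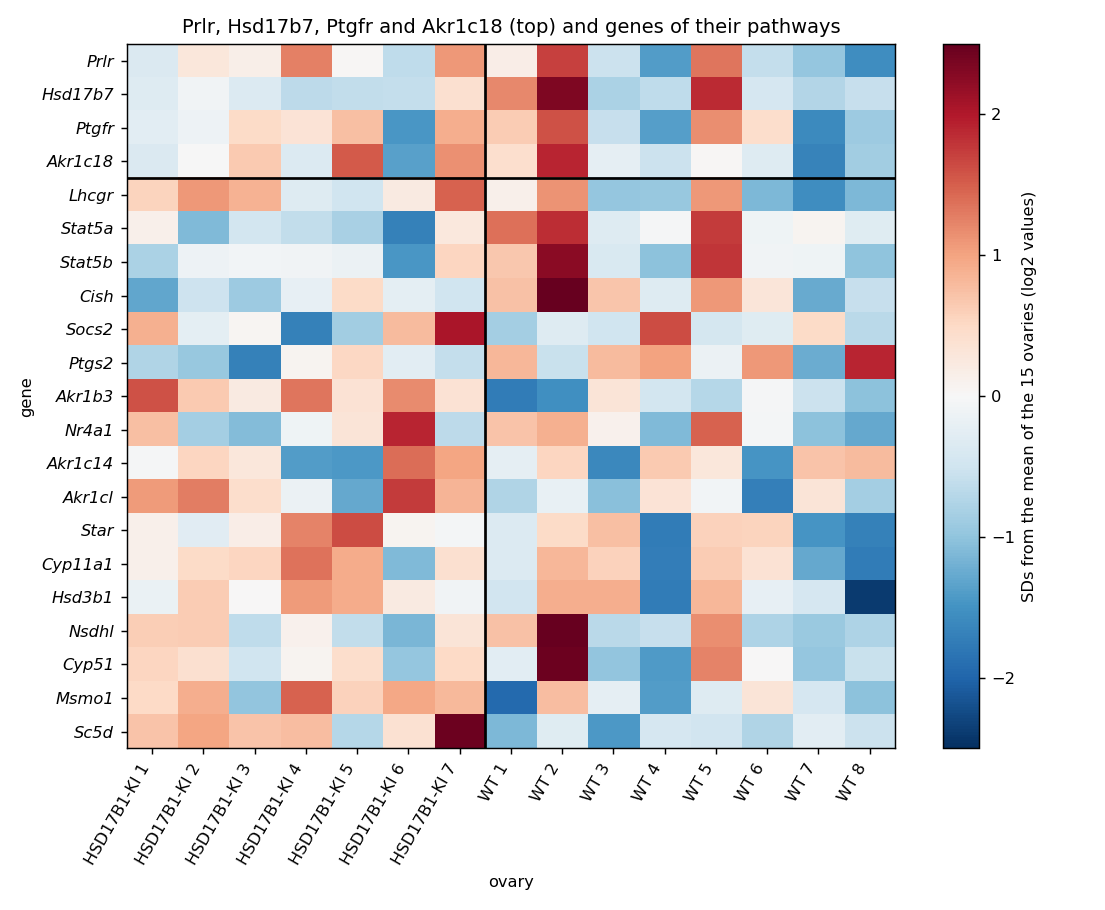
Each column is 1 ovary and each row 1 gene, with the 4 prolactin and luteolysis genes at the top, and colour gives the number of SDs from the mean of the 15 ovaries on log2 values, limited to 2.5 in either direction. WT 2 is high in all 4 genes, and Stat5a, Stat5b and Cish have their highest values in WT 1, WT 2 and WT 5 like Hsd17b7.

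Hsd17b7 also belongs to cholesterol synthesis. Of 20 other genes of that pathway, none passed the adjusted threshold in limma-trend, 4 were higher and 0 lower in HSD17B1-KI at an unadjusted p under 0.05, and the median log2 fold change was 0.01. Shares over all genes tested were 5.36% higher and 4.64% lower at that p. Among the 4 were Fdft1, at the entry to the sterol branch, Msmo1 and Sc5d. Sc5d was at 7528 ± 2825 (SD, n = 7) normalized counts for HSD17B1-KI against 4241 ± 619 (SD, n = 8) for WT, with a log2 fold change of 0.77 and an adjusted p of 0.0949 in limma-trend and 0.00259 in DESeq2. Sc5d thus passed in DESeq2 and not in limma-trend. Msmo1, which removes methyl groups before the step of HSD17B7, was at 8724 ± 958 and 7345 ± 987 (log2 fold change 0.25, limma-trend adjusted p = 0.348). Nsdhl, which acts with it, ranged from 1331 to 1986 and from 1394 to 3023, and the ranges of Cyp51 and Ebp overlapped in the same way, from 2950 to 4123 and 2669 to 6325 for Cyp51 and from 1310 to 2241 and 1315 to 2220 for Ebp.

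Over the 15 ovaries the median r of these 20 genes was 0.622 with Hsd17b7, 0.624 with Prlr, 0.675 with Ptgfr and 0.555 with Akr1c18. By this median the pathway was not closest to Hsd17b7, and the 4 values were not compared by a test. Over these 18023 genes the medians were between -0.0255 and 0.0015. Without WT 1, WT 2 and WT 5 the values for the 20 genes were 0.381, 0.588, 0.574 and 0.373. The closest to Hsd17b7 were Sqle with 0.94, Mvd with 0.93 and Lss with 0.91, named after their values were seen, and over 12 mice these were 0.74, 0.71 and 0.61. Sc5d had an r with Hsd17b7 of -0.04 over 15 mice and 0.83 over 12.

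Genes that make or handle prostaglandin F2α include the synthases upstream of PTGFR. Of 25 tested besides Ptgfr, none passed the adjusted threshold in limma-trend, 3 were higher and 4 lower at an unadjusted p under 0.05, and the median log2 fold change was -0.07. Background shares at that p were 5.36% higher and 4.64% lower. Akr1b3, an aldo-keto reductase that can form prostaglandin F2α, was at 10781 ± 1482 (SD, n = 7) normalized counts for HSD17B1-KI against 7422 ± 1279 (SD, n = 8) for WT. Its log2 fold change was 0.55 with an adjusted p of 0.0617 in limma-trend, 0.0623 in edgeR and 0.00175 in DESeq2, and each of the 7 HSD17B1-KI mice exceeded the mean of WT. Ptges2, named for prostaglandin E synthesis, had a log2 fold change of 0.29, with an adjusted p of 0.124 in limma-trend and 0.0149 in DESeq2. Ptges3, named for the same step and given because DESeq2 called it, was lower, at 5921 ± 727 against 7149 ± 539 normalized counts, with a log2 fold change of -0.28 and an adjusted p of 0.155 in limma-trend and 0.0351 in DESeq2. Ptgs2, the inducible cyclooxygenase, was low, at 21.2 ± 14.3 and 63.9 ± 53.7 normalized counts (log2 fold change -1.32, limma-trend adjusted p = 0.46). Hpgd, which breaks prostaglandins down, ranged from 1113 to 3762 and from 1079 to 3497. The r of Akr1b3 with Ptgfr was -0.23 and that of Ptgs2 was -0.14, as descriptions over 15 mice.

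Of 26 genes linked to luteolysis, such as early response genes, death receptors and vascular factors, none passed the adjusted threshold in limma-trend. At an unadjusted p under 0.05, 2 were lower in HSD17B1-KI and 0 higher, against 4.64% and 5.36% over all genes tested. The median log2 fold change was 0.02. Edn1, a vasoconstrictor peptide, was at 167 ± 61.3 and 290 ± 158 (log2 fold change -0.67, limma-trend adjusted p = 0.496). Nr4a1, a nuclear receptor that prostaglandin F2α is known to induce ahead of Akr1c18, ranged from 1171 to 12903 in HSD17B1-KI and from 999 to 9090 in WT. Its r was 0.12 with Akr1c18 and 0.28 with Ptgfr, and its highest value was in HSD17B1-KI 6, where Akr1c18 was at 98.8. The median r of the 26 genes was 0.14 with Ptgfr and 0.10 with Akr1c18.

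The genes of progesterone reduction are relatives of Akr1c18, 5α-reductases and progesterone receptors. Of 13 tested besides Akr1c18, none passed the adjusted threshold in limma-trend, and 4 were higher and 0 lower at an unadjusted p under 0.05, with a median log2 fold change of 0.08. The background at that p was 5.36% higher and 4.64% lower. Pgrmc1, a membrane protein that responds to progesterone, was at 18373 ± 3853 (SD, n = 7) normalized counts for HSD17B1-KI against 12530 ± 1545 (SD, n = 8) for WT. Its log2 fold change was 0.53 with an adjusted p of 0.0835 in limma-trend and 0.00246 in DESeq2. Akr1cl, the relative that shares sequence with Akr1c18, had a log2 fold change of 0.39 (limma-trend adjusted p = 0.408) and an r of -0.23 with Akr1c18. Akr1c14, a 3α-hydroxysteroid dehydrogenase that acts on progesterone metabolites, ranged from 6534 to 28390 and from 5959 to 20890, and its r with Akr1c18 was -0.20. Pgr, the nuclear progesterone receptor, was at 122 ± 44.5 and 461 ± 553 (log2 fold change -1.03, limma-trend adjusted p = 0.646), with its 2 highest values, 1653 and 845, in WT 8 and WT 1, the ovaries with the most oviduct marker RNA. The part of oviduct RNA in the level of Pgr was not tested. The median r of the relatives and receptors with Akr1c18 was -0.19 over the 11 with a mean of at least 10.

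Progesterone synthesis, the process that AKR1C18 opposes, included the 1 gene of these lists that passed in limma-trend. Hsd3b6, an isoform of 3β-hydroxysteroid dehydrogenase, was at 206 ± 95.3 (SD, n = 7) normalized counts for HSD17B1-KI against 53.5 ± 26.1 (SD, n = 8) for WT, with a log2 fold change of 1.97 and an adjusted p of 0.0239 in limma-trend. Its adjusted p was 0.0242 in edgeR and 7.97e-07 in DESeq2. The groups did not overlap, as for 0.325% of the genes tested, with 121 at the lowest in HSD17B1-KI 7 and 101 at the highest in WT 6. The call was the same in 19 alternative settings and weaker in 6. In those 6, all in limma-trend, the adjusted p was 0.0612 without HSD17B1-KI 2, 0.0529 without HSD17B1-KI 4, 0.0646 without WT 2 and 0.0535 without WT 4. It was 0.0679 without WT 1 and WT 8, and 0.371 with the replicate number as a block, which does not pair the mice. The log2 fold changes in these 6 settings were 1.69 to 2.00. Of the 13 genes, 2 were higher and 0 lower at an unadjusted p under 0.05, against 5.36% and 4.64% over all genes tested. The second of the 2 was Fdx1, the electron donor of the first step (log2 fold change 0.50, limma-trend adjusted p = 0.406). Star, which brings cholesterol into mitochondria, was at 43009 ± 32417 and 25219 ± 18208 (log2 fold change 0.99, limma-trend adjusted p = 0.6). Cyp11a1, the enzyme of the first step, had a log2 fold change of 0.38 (limma-trend adjusted p = 0.656), and Hsd3b1, the main luteal isoform, 0.20 (limma-trend adjusted p = 0.697). Per kilobase of exon, Hsd3b6 had a mean of 114 normalized counts in HSD17B1-KI, far below the 207142 of Hsd3b1. Across ovaries Cyp11a1 had an r of 0.79 with Prlr, 0.79 with Ptgfr, 0.65 with Akr1c18 and 0.31 with Hsd17b7. The median r of the 13 genes was 0.62 with Prlr, 0.52 with Ptgfr, 0.43 with Akr1c18 and 0.27 with Hsd17b7.

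**Figure D4:**
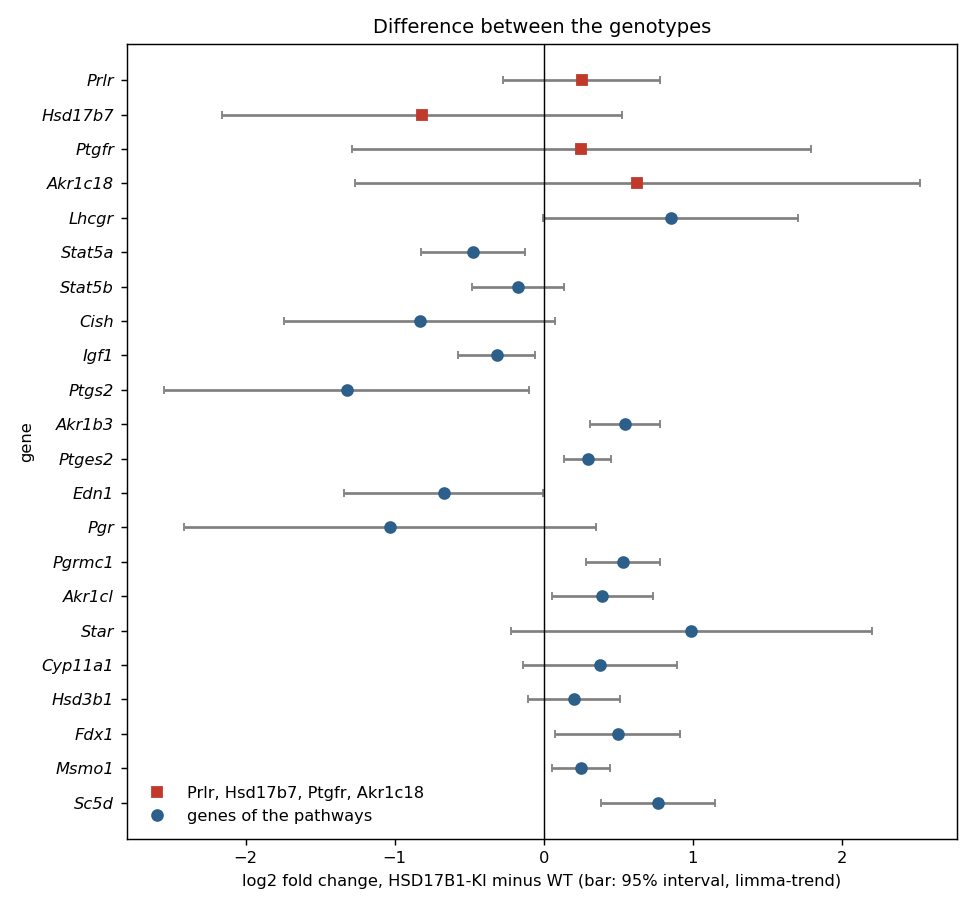
Points are log2 fold changes, HSD17B1-KI minus WT, with 95% intervals of limma-trend over 7 and 8 mice, squares for the prolactin and luteolysis genes and circles for genes of their pathways. The intervals of all 4 squares include 0, and those of Ptgfr and Akr1c18 are wider than 3 log2 units, while that of Akr1b3, among others, does not include 0 before adjustment.

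The genes most like each of the 4 in their values over the 15 ovaries were taken among 18047 genes that averaged 10 normalized counts or more, by Pearson r of log2 values. For Prlr they were Iars2 with an r of 0.917, AL591003.1 with 0.909 and Clcn5 with 0.887. For Ptgfr they were Mmp15 with 0.952, Lipg with 0.943 and Saa2 with 0.936. For Akr1c18 they were 2010003K11Rik with 0.871, Onecut2 with 0.869 and Ptgfr itself with 0.854, so that the receptor was among the 3 closest of the 18047. For Hsd17b7 they were Baiap3 with 0.957, Hist2h2be with 0.956 and Aatk with 0.953, which over the 12 mice without WT 1, WT 2 and WT 5 were 0.453, 0.731 and 0.404. The likeness to the other 3 genes changed less over the same 12 mice, to 0.919 for Iars2 with Prlr and 0.936 for Mmp15 with Ptgfr. All values come from the same 15 libraries, and these genes were picked as the extremes of many.

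The genes that ran most opposite were Abhd14a with -0.891, Cdkn2aipnl with -0.823 and Cep112 with -0.821 for Prlr. For Hsd17b7 they were Pbxip1 with -0.863, Cxx1c with -0.858 and Gabrr2 with -0.841, and for Ptgfr Rnf114 with -0.854, Abhd14a with -0.851 and Tcf7l2 with -0.805. For Akr1c18 they were Setmar with -0.798, Zfp846 with -0.785 and Phactr3 with -0.759. Abhd14a appeared for both Prlr and Ptgfr, and none of the 4 genes was among the most opposite of another.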

How the data were processed

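Stranded mRNA libraries, 1 per mouse, were made from ovaries of 7 HSD17B1-KI and 8 WT mice. Per the labels, reads were demultiplexed with bcl2fastq 2.20 and aligned to mm10 with STAR 2.7.3, and the authors deposited 1 table of normalized counts, a signal of reads per gene divided by 1 size factor per library. The counting program and annotation release are not given in the sources used here. Division by the smallest step of each library gave whole reads, within 0.001, for 100% of values, and these were used for edgeR and DESeq2. Replicates are separate mice, and no 2 libraries were identical.

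The 4 genes, the pathway lists and the tests were chosen with earlier results of these data known. limma-trend was fitted to log2(normalized count + 1) of genes with a mean of at least 2, genotype as the only term, two-sided, with Benjamini-Hochberg adjustment over all genes tested. The added count makes fold changes of low genes smaller. Correlations used 100000 permutations, or all orders for 8 mice or fewer. Named were the 4 genes, 19 genes chosen for their role, the 2 other genes of lowest p per list and, per gene, the 3 most and 3 least alike. A few genes that this rule names are not reported here. Exons came from GENCODE M21, which held 27533 of the identifiers, and promoters from RefSeq. Reads per mouse limit genes with few reads, such as Akr1c18 with 54 in 1 mouse, and this covers counting error only. Alternatives were other pseudocounts, filters, scalings and tests, a replicate block and leaving out mice. The fits were tested on simulated data, with changes placed only in genes that varied little between mice. That test does not cover genes as variable as Hsd17b7, Ptgfr and Akr1c18. Versions were SciPy 1.17.1 on Python 3.11.15, and DESeq2 1.42.0, edgeR 4.0.16 and limma 3.58.1 on R 4.3.3.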

Additional observations from a re-analysis of the deposited data

Results flagged for a closer look

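Dixon's criterion was applied to log2(normalized count + 1) in 46 groups of mice, 7 or 8 ovaries for each of 23 genes. On this log2 scale, 2 groups held a value set far apart from the rest, where chance gives about 1 in 20. Jak2, the kinase of prolactin signalling, was at 2602 normalized counts in HSD17B1-KI 1, the lowest of its group, with a gap of 0.722 of the range against a limit of 0.568. Msmo1, of cholesterol synthesis, was at 6803 normalized counts in HSD17B1-KI 3, with a gap of 0.604 against the same limit. None of the log2 values of Prlr, Hsd17b7, Ptgfr or Akr1c18 met this criterion, and the result covers that scale only.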

How the results depend on the processing

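No setting made Prlr, Hsd17b7, Ptgfr or Akr1c18 pass the threshold between the genotypes. The log2 fold change of Ptgfr changed sign with edgeR (-0.28), with DESeq2 (-0.28), without WT 4 (-0.03, exact permutation p = 0.974) and without WT 7 (-0.0698, exact permutation p = 0.929), and on mean normalized counts the exact permutation p was 0.721 with the lower mean in HSD17B1-KI. When each mouse was left out in turn, the log2 fold change was 0.16 to 0.40 for Prlr, -1.03 to -0.42 for Hsd17b7, -0.0698 to 0.64 for Ptgfr and 0.21 to 1.18 for Akr1c18, and the exact permutation p was 0.128 to 0.568, 0.189 to 0.507, 0.42 to 0.974 and 0.19 to 0.837. For pairs it was r = 0.34 to 0.711 for Hsd17b7 and Akr1c18, the lowest without WT 2 (permutation p = 0.235), and 0.553 to 0.898 for the other pairs. Chosen after seeing the data were the test on mean normalized counts and leaving out WT 1, WT 2 and WT 5, or WT 1 and WT 8. Without WT 1, WT 2 and WT 5, r fell to 0.535, 0.554 and 0.514 for Hsd17b7 with Prlr, Ptgfr and Akr1c18, and without WT 1 and WT 8 to 0.545 for Hsd17b7 and Akr1c18 (permutation p = 0.0511). The number of genes called by limma-trend, 45 higher and 1 lower, was 6 to 123 higher and 0 to 16 lower when each mouse was left out, the most without HSD17B1-KI 5. It was 27 higher without a filter, 2 lower with a pseudocount of 10, 3 lower with a mean of at least 10, 2 lower in edgeR, 319 higher and 146 lower in DESeq2, and 9 higher and 0 lower without WT 1 and WT 8. The same replicate number does not pair the mice, since deviations of same-numbered mice correlated between -0.549 and 0.55 and 1 of 7 HSD17B1-KI mice correlated best with its own number. With the number as a replicate block, 0 genes were called higher and 0 lower (915 and 815 at an unadjusted p under 0.05), and log2 fold changes were 0.16 for Prlr, -0.98 for Hsd17b7, 0.08 for Ptgfr and 0.44 for Akr1c18. The causes were not tested.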
